A study of Mus musculus with 12 samples.

Results

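Whether loss of cortistatin changed the response of brain endothelial cells (BECs) to deprivation of oxygen and glucose was asked gene by gene, as the interaction of genotype and environment. The interaction is the response of Cort-/- BECs (OGD-R minus NX/NG) minus the response of Cort+/+ BECs, on the log2 scale. A positive value means that OGD-R moved the gene upward more, or downward less, in Cort-/- than in Cort+/+ BECs. All 10 libraries with a column in the deposited tables entered, of 12 samples listed, with the 27321 genes that both tables hold of 32419 in all. Of these, 14855 genes with at least 1 RPKM (reads per kilobase of gene length, relative to library size) in at least 2 libraries were tested.

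BECs were primary cultures from 8-week-old mice (C57BL/6 in the labels, C57BL/6J in the methods of the study), either wild type (Cort+/+) or cortistatin-deficient (Cort-/-), enriched with puromycin. Each replicate pooled cells of 3 mice. Under NX/NG (NM in the labels) the cells stayed 24 h at 21% O2 with 5.5 mM glucose. Under OGD-R (OGD in the labels) they spent 4 h at 1% O2 without glucose or serum and then 20 h of reoxygenation. There were 3 Cort+/+ libraries in each environment and 2 Cort-/- libraries in each. In Cort-/- BECs, replicate 3 of NX/NG and replicate 2 of OGD-R were not analysed here. The labels also name a stroke model in mice as disease state, whereas the methods of the study describe these cultures. The 10 libraries held between 12386048 and 12390428 reads on genes.

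Cortistatin is a neuropeptide close to somatostatin that acts on the somatostatin receptors. BECs line the vessels of the brain, seal them with tight junctions and rest on a basement membrane that they share with pericytes. Oxygen and glucose deprivation followed by reoxygenation is a culture model of ischemia and reperfusion, and hypoxia, glucose loss and oxidative stress each have well known target genes.

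Cort itself could not carry an interaction. In Cort+/+ BECs its reads numbered 2, 1 and 1 under NX/NG and 0, 0 and 1 after OGD-R, with 0 in every Cort-/- library, all at or under the floor of 3 reads. Of 9 genes of the cortistatin and somatostatin system, 0 passed the filter on low values. The receptor Sstr4 lay between 0.228 and 1.11 RPKM and Sstr2 between 0.0993 and 1.20 RPKM over the 10 libraries, while Sst, Sstr3, Sstr5, Ghsr and Mrgprx1 were not in both tables. Endothelial markers were high in every library. Cldn5, a tight junction protein of the brain endothelium, lay at 102 to 135 RPKM, and 10 endothelial markers summed to between 898 and 1331 RPKM. Markers of other cell types were present as well. The sum of 6 smooth muscle markers was 976 to 1862 RPKM, and that of 10 fibroblast and leptomeningeal markers 90.7 to 343 RPKM.

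A pair of libraries stood apart. Ribosomal RNA (Rn18s-rs5) took 0.0775% of the reads of Cort+/+ OGD-R replicate 1 and 0.0951% of those of Cort-/- OGD-R replicate 3, against 7.64% to 15.8% in the other libraries. Both lie under OGD-R, 1 in each genotype. The first principal component (25.9% of the variance) separated them from the rest, and they correlated with each other at r = 0.952 across genes, more closely than with their own groups (mean r = 0.912 and 0.918). Results are therefore given over all 10 libraries and without Cort+/+ OGD-R replicate 1, after which 1 library low in ribosomal RNA remains, in the Cort-/- OGD-R group.

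At a false discovery rate (FDR) of at most 0.05, limma called 0 genes (0% of 14855) over all 10 libraries and 0 genes (0% of 14726) without Cort+/+ OGD-R replicate 1. The lowest FDR was 0.296 and 0.269. Over all 10 libraries 266 genes (1.79%) reached an unadjusted p under 0.05, 149 with a positive interaction (1.00%) and 117 with a negative one (0.788%). Without Cort+/+ OGD-R replicate 1 there were 536 (3.64%), 269 positive (1.83%) and 267 negative (1.81%). Each of these shares lies below the 5% that a test at this level passes by its construction, so the genes described here are those with the largest or most repeatable differences in these libraries, and none of them passed the correction for the number of genes. The lists shared 205 genes, 77.1% of the first and 38.2% of the second, with the same sign in all 205. By limma-voom on the recovered reads 0 genes were called and 216 had a p under 0.05.

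The count depended on single libraries. Leaving out each library in turn gave between 226 and 735 genes at an unadjusted p under 0.05. The 735 came without Cort-/- OGD-R replicate 1, where the 1 library left in that group is low in ribosomal RNA, and 2 genes were then called, the snoRNA gene Gm23442 and ENSMUSG00002075104, with at most 7 and 9 reads in a library. Without Cort-/- OGD-R replicate 3 there were 361 genes, and the share with a positive interaction went from 56.0% to 31.3%. Without both libraries low in ribosomal RNA there were 559, with 31.3% positive.

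**Figure D1:**
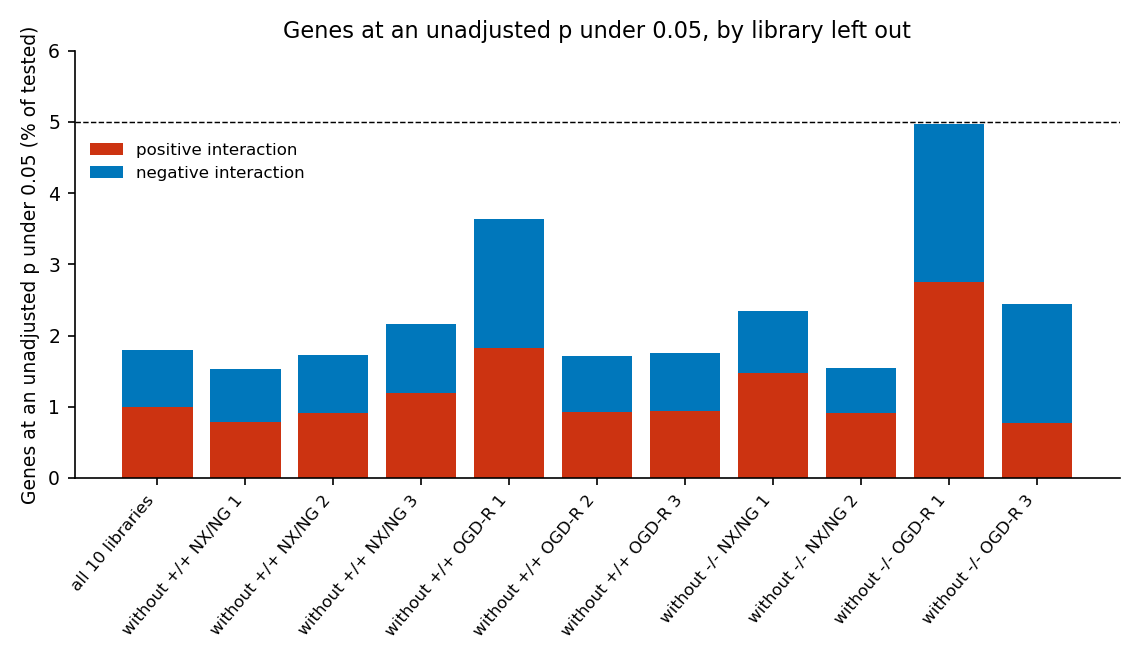
Share of tested genes with an unadjusted p under 0.05 for the interaction (y axis, %), over all 10 libraries and with each library left out in turn (x axis); red is positive, blue is negative and the dashed line marks 5%. The bars run from 226 genes, without Cort+/+ NX/NG replicate 1, to 735 genes, without Cort-/- OGD-R replicate 1, and all lie under the line.

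The precision of the interaction is given gene by gene, with intervals that are not adjusted for the number of genes. Its median standard error was 0.21, and the 95% interval lay within 1 log2 unit of 0 (2-fold either way) for 10978 genes (73.9%). Where the mean was 5 RPKM or more this held for 7019 of 7809 genes (89.9%). Intervals within 1.5-fold either way were reached by 7041 genes (47.4%). These intervals do not bound what the FDR over all genes could miss. Cox6b2, with an interaction of 1.71 (SE 0.22), was not called (limma FDR = 0.296). Smaller interactions, and those of genes with few reads, could be missed as well.

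**Figure D2:**
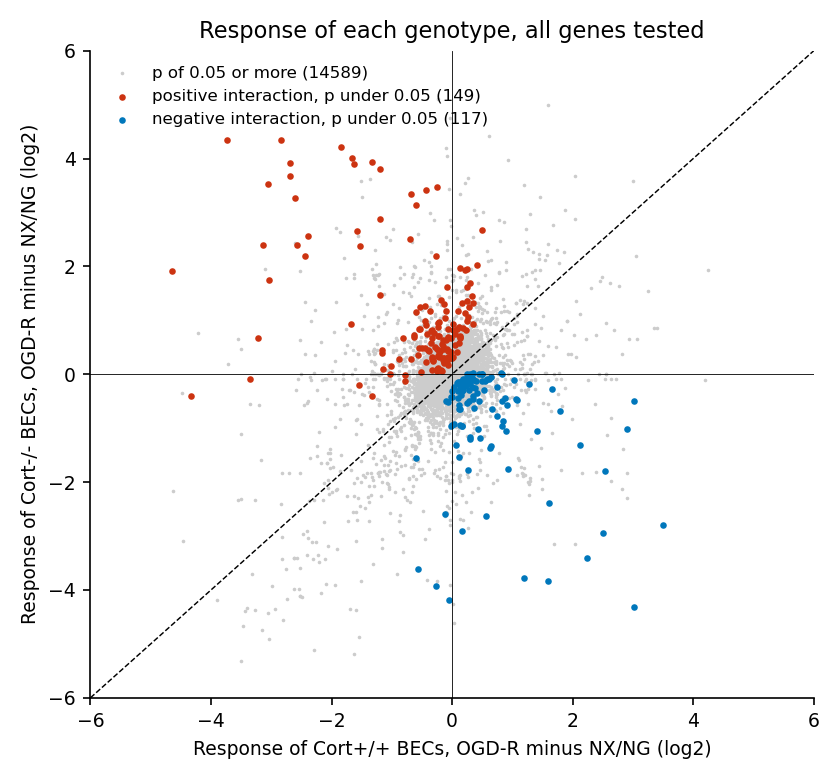
Response to OGD-R of each of 14855 genes in Cort+/+ (x axis) and Cort-/- BECs (y axis), both as log2 differences from NX/NG over all 10 libraries; the dashed line marks equal responses. The 149 genes in red (positive) and 117 in blue (negative) had an unadjusted p under 0.05 for the interaction, and the bulk of genes lies close to the centre.

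Among the 149 genes with a positive interaction, 76 had a response at an unadjusted p under 0.05 in Cort-/- BECs alone, 29 in Cort+/+ BECs alone, 7 in both and 37 in neither. By genotype difference, 92 of the 149 had one under NX/NG alone, 21 under OGD-R alone, 11 in both environments and 25 in neither. The negative genes were divided otherwise, with 38 of 117 showing a genotype difference under NX/NG alone and 46 under OGD-R alone. These divisions use the same libraries as the interaction and describe where its value came from. In levels, both Cort-/- NX/NG libraries lay below the 8 others for 68 of the 149 positive genes (45.6%), against 719 of all genes tested (4.84%). Both lay above the 8 others for 13 of the 117 negative genes (11.1%), against 717 of all genes tested (4.83%). Low Cort-/- NX/NG values raise the interaction and high ones lower it, so these shares follow in part from how the genes were chosen. They describe the levels and are no separate test.

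The coding gene with the lowest p was Cox6b2, a subunit of cytochrome c oxidase best known from testis (chromosome 7, 4751792 to 4753094). Next among coding genes stood Cspg4, the NG2 proteoglycan of pericytes and glial progenitors (chromosome 9, 56865033 to 56899870). The bases just before the starts of both genes (RefSeq, GRCm38.p6) are shown because these genes lead the positive interactions, without the exons that the annotation places there. The first lies at chr7:4753095-4753225 on the minus strand and the second at chr9:56864854-56865032 on the plus strand, and capitals mark CCAAT, the letters of a common promoter element, read on either strand.
Cox6b2: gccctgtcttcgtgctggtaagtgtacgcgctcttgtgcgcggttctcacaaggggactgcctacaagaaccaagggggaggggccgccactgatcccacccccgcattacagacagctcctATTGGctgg
Cspg4: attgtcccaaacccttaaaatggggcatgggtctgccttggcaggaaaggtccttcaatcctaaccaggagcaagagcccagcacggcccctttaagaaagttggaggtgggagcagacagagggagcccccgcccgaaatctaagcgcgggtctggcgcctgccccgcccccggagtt
The Cox6b2 window held 1 match and the Cspg4 window 0, where 22.5% and 24.8% of 32851 promoter windows of the same length and position hold at least 1.

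Cox6b2 lay at 3.70, 2.95 and 3.37 RPKM in the Cort+/+ NX/NG replicates and at 3.46, 4.59 and 3.90 RPKM after OGD-R. In Cort-/- BECs it lay at 0.827 and 0.658 RPKM under NX/NG and at 3.15 and 3.16 RPKM after OGD-R. The 2 Cort-/- NX/NG libraries were thus the lowest of the 10, with no overlap with any other group. The group means were 3.34 ± 0.373 and 3.98 ± 0.573 RPKM in Cort+/+ (SD, n = 3) and 0.742 ± 0.119 and 3.15 ± 0.00632 RPKM in Cort-/- BECs (SD, n = 2). The interaction was 1.71 (SE 0.22, 95% interval 1.21 to 2.22, limma FDR = 0.296) and 1.61 without Cort+/+ OGD-R replicate 1 (FDR = 0.37). It stayed between 1.57 and 1.86 with each library left out in turn.

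Cspg4 lay at 3.64, 4.18 and 4.24 RPKM in Cort+/+ BECs under NX/NG and at 4.38, 5.02 and 4.59 RPKM after OGD-R. In Cort-/- BECs it lay at 0.698 and 1.399 RPKM under NX/NG and at 3.60 and 4.60 RPKM after OGD-R. Again the Cort-/- NX/NG libraries lay below the other 8, and the Cort-/- OGD-R libraries overlapped both Cort+/+ groups. The interaction of Cspg4 was 1.72 (SE 0.34, 95% interval 0.95 to 2.49), 1.67 without Cort+/+ OGD-R replicate 1, and 1.27 to 2.18 with each library left out.

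**Figure D3:**
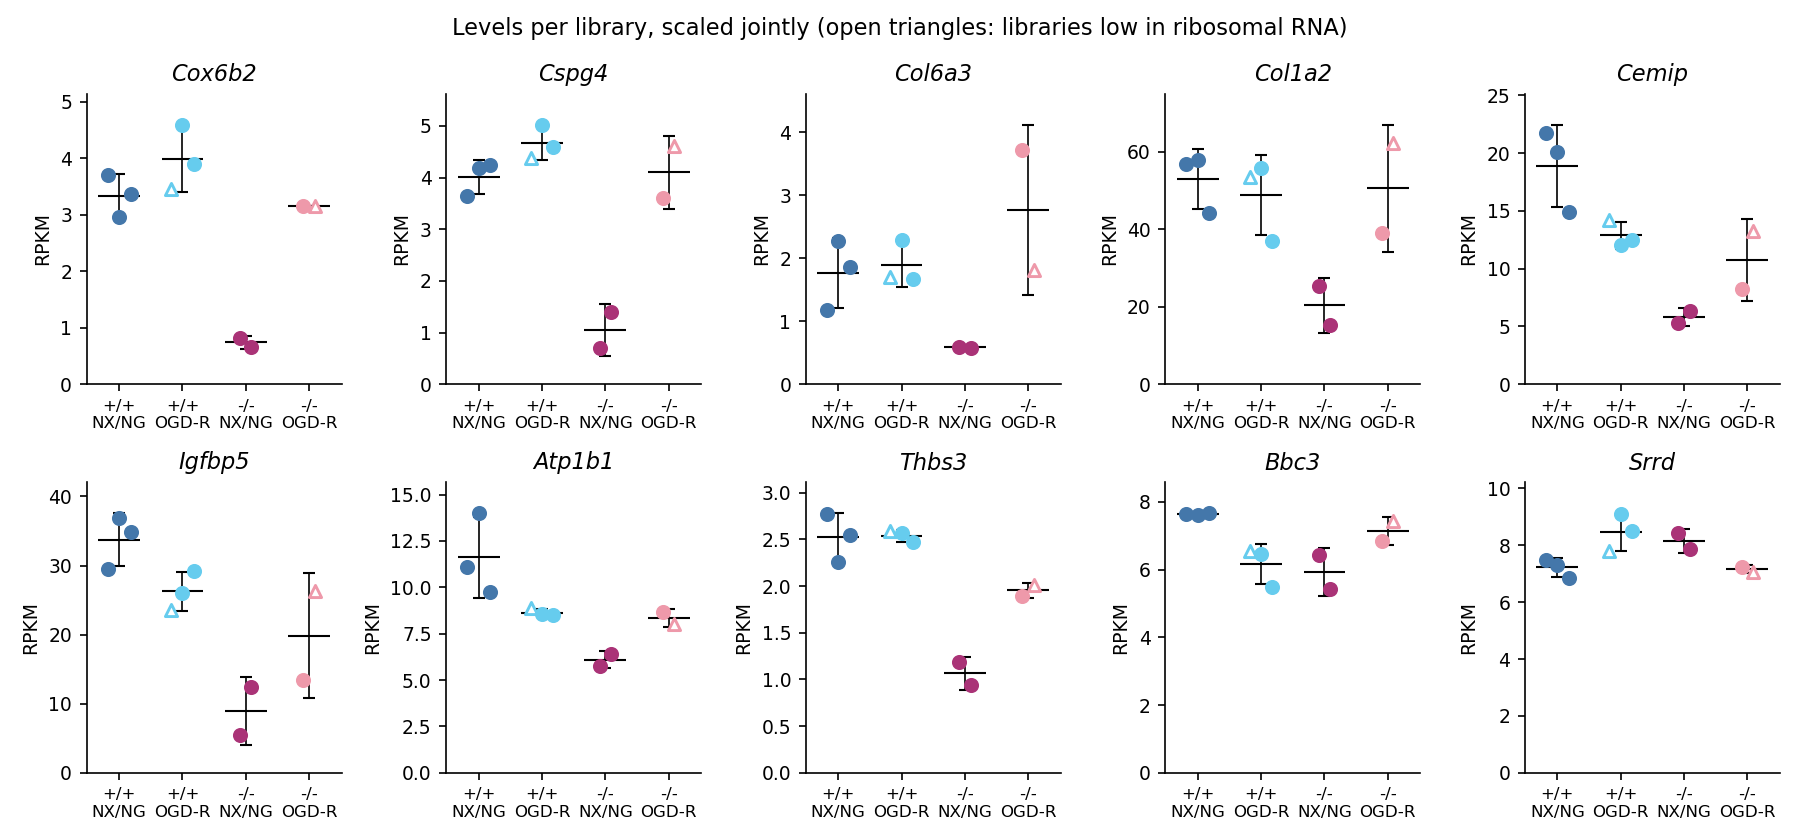
RPKM (y axis, from 0) of 10 genes in each library by genotype and environment (x axis), after joint scaling; points are libraries, open triangles the 2 low in ribosomal RNA, and bars the mean ± SD (n = 3 for +/+, n = 2 for -/-). In Cox6b2, Cspg4, Col6a3, Col1a2, Cemip, Igfbp5, Atp1b1 and Thbs3 the 2 Cort-/- NX/NG libraries are the lowest of the 10, while in Srrd the Cort+/+ OGD-R libraries include the highest.

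Collagen chains recurred among the positive interactions, while other lists of matrix genes had few or no members there. Of 39 collagen chains listed, 21 were tested, 5 of them had an unadjusted p under 0.05 with a positive sign and 0 with a negative sign, against 1.00% and 0.788% of all genes. The interaction was positive in 16 of 21 and its median was 0.42, against -0.02 over all genes tested. Without Cort+/+ OGD-R replicate 1 the median was 0.53, with 6 positive genes at an unadjusted p under 0.05. The 5 were Col6a3, Col1a2, Col6a2, Col11a1 and Col1a1, chains of collagens VI, I and XI. Col11a1 and Col1a1 fall outside the rule by which genes were chosen for naming and were named after their values were seen.

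Col6a3, a chain of the microfibrillar collagen VI, lay at 1.17, 2.27 and 1.86 RPKM in Cort+/+ BECs under NX/NG and at 1.70, 2.30 and 1.68 RPKM after OGD-R. In Cort-/- BECs it lay at 0.592 and 0.582 RPKM under NX/NG and at 3.72 and 1.81 RPKM after OGD-R. The Cort-/- OGD-R pair was far apart, with 1 library above all Cort+/+ libraries and the other among them. Its interaction was 1.85 (SE 0.48, 95% interval 0.74 to 2.96) and 1.78 without Cort+/+ OGD-R replicate 1.

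Col1a2, a chain of the fibrillar collagen I, lay at 56.8, 57.8 and 44.1 RPKM and at 53.5, 55.8 and 37.0 RPKM in Cort+/+ BECs under NX/NG and OGD-R. In Cort-/- BECs it lay at 25.4 and 15.4 RPKM under NX/NG and at 39.0 and 62.2 RPKM after OGD-R. Under OGD-R the genotypes overlapped, and under NX/NG they did not. The interaction of Col1a2 was 1.44 (SE 0.40, 95% interval 0.52 to 2.36) and 1.52 without Cort+/+ OGD-R replicate 1.

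The interaction of Col6a2 was 1.07 (SE 0.35), that of Col1a1 was 0.91 (SE 0.37) and that of Col11a1 was 0.80 (SE 0.26). The chains that the vascular basement membrane is built from did not show it, with an interaction of -0.01 for Col4a1 (95% interval -0.42 to 0.41) and 0.03 for Col4a2 (95% interval -0.39 to 0.45), both named after their values were seen. For 10 of the 21 chains tested (47.6%) both Cort-/- NX/NG libraries lay below the 8 others, against 719 of all genes tested (4.84%). The collagen count rested on few libraries, with 2 chains at an unadjusted p under 0.05 without Cort-/- OGD-R replicate 3, 3 without Cort-/- NX/NG replicate 2, and a lowest median of 0.23 without Cort+/+ OGD-R replicate 3.

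Of 35 matrix proteases and inhibitors tested, 2 had an unadjusted p under 0.05 with a positive sign, the aggrecanase Adamts1 (0.80, SE 0.25) and the procollagen peptidase Adamts2 (0.53, SE 0.23), and 0 with a negative sign, against 1.00% and 0.788% of all genes. Without Cort+/+ OGD-R replicate 1 both remained at that level and 1 negative gene joined them, the sheddase Adam17 (-0.30, named after its values were seen). Over all 10 libraries, collagen processing and crosslinking had 0 of 22 genes at that level (median 0.11). Basement membrane and matrix glycoproteins had 0 of 32 (median 0.08). Without Cort+/+ OGD-R replicate 1 the glycoproteins had 1 positive gene, against 1.83% of all genes, and collagen processing still had 0. Mmp2, a gelatinase, had an interaction of 0.38 (95% interval -0.10 to 0.86). Cemip, which takes part in the breakdown of hyaluronan, had one of 1.37 (SE 0.31, 95% interval 0.66 to 2.08) and 1.44 without Cort+/+ OGD-R replicate 1. Cemip lay at 21.7, 20.1 and 14.9 RPKM under NX/NG and at 14.2, 12.01 and 12.5 RPKM after OGD-R in Cort+/+ BECs, and at 5.28 and 6.38 RPKM and then 8.23 and 13.2 RPKM in Cort-/- BECs. Its levels thus went downward in the one genotype and upward in the other. Thbs3, a thrombospondin, had an interaction of 0.81 (SE 0.20), with 2.77, 2.26 and 2.55 RPKM and 2.59, 2.57 and 2.47 RPKM in Cort+/+ BECs against 1.19 and 0.941 RPKM and then 1.89 and 2.01 RPKM in Cort-/- BECs.

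The sum of pericyte markers followed the order of the collagen values, and that of smooth muscle markers did not. The sum of 8 pericyte markers was 18.3 to 21.9 RPKM in Cort+/+ BECs under NX/NG and 17.0 to 22.3 RPKM after OGD-R, but 7.81 and 10.5 RPKM in Cort-/- BECs under NX/NG and 15.0 and 17.1 RPKM after OGD-R. Of the 8, Kcnj8, Abcc9, Atp13a5 and Higd1b held at most 3 reads in every library, and 3 were tested. Pdgfrb, the pericyte receptor for platelet-derived growth factor, had an interaction of 0.76 (SE 0.27), and Rgs5, another pericyte gene, one of 0.37 (95% interval -0.65 to 1.38). The sum of 6 smooth muscle markers was 1523 to 1862 RPKM and 1314 to 1665 RPKM in Cort+/+ BECs, and 1350 and 1615 RPKM and then 976 and 1465 RPKM in Cort-/- BECs. Their median interaction was -0.08 over the 5 tested and 0.03 without Cort+/+ OGD-R replicate 1. It ran from -0.32 to 0.23 with each library left out in turn. Of the 5, only Actg2 (1.34) had an unadjusted p under 0.05, and 0 did without Cort+/+ OGD-R replicate 1. The sum of 10 fibroblast and leptomeningeal markers is mostly Col1a1, Col1a2 and Col3a1, which are collagen chains already counted, so it is no separate measure of these cells. It was 204 to 295 RPKM and 232 to 343 RPKM in Cort+/+ BECs, and 90.7 and 129 RPKM and then 200 and 252 RPKM in Cort-/- BECs, with at most 3 reads of Slc6a13 and Slc47a1 in every library. The 3 tested markers of that list that are not collagens had wide intervals, at 0.40 for the transcription factor Foxc2 (95% interval -0.51 to 1.30), -0.12 for the proteoglycan decorin, Dcn (95% interval -1.27 to 1.03), and 0.08 for Aldh1a2, an enzyme of retinoic acid synthesis (95% interval -1.78 to 1.93). The endothelial sum was 1182 and 1328 RPKM in Cort-/- NX/NG libraries and 898 to 1331 RPKM in the others. In such bulk samples fewer cells of a type and less RNA per cell cannot be told apart, and the part of these cells in the matrix values was not tested.

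Of 39 growth factor ligands and receptors tested, 3 had an unadjusted p under 0.05, all positive, namely Igfbp5, Fgf2 and Pdgfrb, against 1.00% of all genes with a positive sign. Without Cort+/+ OGD-R replicate 1 there were 5, all positive, against 1.83%. Igfbp5, which binds insulin-like growth factors, lay at 29.5, 36.9 and 34.9 RPKM and at 23.5, 26.1 and 29.2 RPKM in Cort+/+ BECs, and at 5.45 and 12.4 RPKM and then 13.5 and 26.3 RPKM in Cort-/- BECs. Every Cort-/- NX/NG value was below all others, though the Cort-/- OGD-R pair differed from each other. The interaction of Igfbp5 was 1.54 (SE 0.50) and no longer reached an unadjusted p under 0.05 without Cort-/- OGD-R replicate 3. Fgf2, an angiogenic factor, had an interaction of 0.58 (SE 0.20). Dkk3, a secreted protein of the Dickkopf family, had one of 0.76 (SE 0.27).

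Genes unrelated to matrix also stood among the lowest p. Atp1b1, the beta subunit of the sodium pump, lay at 11.1, 14.0 and 9.76 RPKM and at 8.89, 8.55 and 8.50 RPKM in Cort+/+ BECs, and at 5.78 and 6.42 RPKM and then 8.68 and 8.02 RPKM in Cort-/- BECs. The genotypes were apart under NX/NG and overlapped after OGD-R. The interaction of Atp1b1 was 0.85 (SE 0.19, 95% interval 0.41 to 1.30) and 0.87 without Cort+/+ OGD-R replicate 1. Bbc3, which encodes the proapoptotic protein PUMA, had one of 0.58 (SE 0.15), with 7.63, 7.62 and 7.66 RPKM and then 6.55, 6.45 and 5.49 RPKM in Cort+/+ BECs, and 6.43 and 5.42 RPKM and then 6.85 and 7.43 RPKM in Cort-/- BECs.

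Of the 12 negative genes of lowest p, 8 were predicted genes or had no symbol, against 2 of the 12 positive ones. MicroRNA genes were counted here as having a symbol, and the share over all genes tested was not counted. Srrd, a gene linked to heme and clock regulation, lay at 7.498, 7.32 and 6.84 RPKM and at 7.79, 9.11 and 8.51 RPKM in Cort+/+ BECs, and at 8.44 and 7.87 RPKM and then 7.25 and 7.06 RPKM in Cort-/- BECs. Its values were higher after OGD-R in all Cort+/+ libraries and lower in both Cort-/- libraries, with an interaction of -0.41 (SE 0.12, 95% interval -0.69 to -0.13) and -0.47 without Cort+/+ OGD-R replicate 1. Arrdc1, an arrestin-domain protein, and Sdf2l1, a chaperone component of the endoplasmic reticulum, both had an interaction of -0.35 (SE 0.14).

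Short genes took a large place at the lowest p. Of the 266 genes, 78 were shorter than 200 bases, against 1187 of the 14855 genes tested. Of the same 266, 69 held fewer than 10 reads in every library, which was not counted over all genes tested. Among the 12 genes of lowest p in each direction, 6 positive and 8 negative genes were this short. The microRNA gene Mir7063 held 3, 3 and 3 reads and then 6, 6 and 6 reads in the Cort+/+ libraries, and 3 and 4 reads and then 2 and 3 reads in the Cort-/- libraries, and Mir7019 held at most 7 reads and 0 reads in all 3 Cort+/+ OGD-R libraries. In genes of that size 1 RPKM is about 1 read, so these values are given as counts of reads with no fold.

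The study names genes for each of its comparisons, chosen by the study on these samples, and the interaction was read for a part of them. Others that it names, such as Jam2, Cdh11 and Krt8, are not in these lists. Of 17 listed genes named for the response of Cort+/+ cells to OGD-R, 16 were tested, 0 had an unadjusted p under 0.05, and 6 were positive and 10 negative, with a median of -0.07. Their median response was 0.71 in Cort+/+ and 0.75 in Cort-/- BECs. Nr1d1, a repressor of the circadian clock, lay at 6.22, 5.72 and 5.15 RPKM and then 8.598, 8.67 and 9.20 RPKM in Cort+/+ BECs, and at 5.55 and 5.82 RPKM and then 8.64 and 9.17 RPKM in Cort-/- BECs. Its interaction was 0.01 (95% interval -0.28 to 0.31), so a difference of more than 0.31 log2 units between the responses lies outside the interval. Timp1, an inhibitor of matrix proteases, had 0.14 (95% interval -0.47 to 0.75), and the immediate early gene Fos had -0.12 (95% interval -0.65 to 0.41).

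The immediate early gene Egr1 had an interaction of 0.43 (95% interval -0.01 to 0.86), from 6.76, 6.29 and 5.36 RPKM to 9.55, 9.75 and 11.1 RPKM in Cort+/+ BECs and from 3.45 and 4.43 RPKM to 8.56 and 9.00 RPKM in Cort-/- BECs. Every OGD-R library thus lay above every NX/NG library in both genotypes. Gbp3, an interferon-induced guanylate-binding protein, had an interaction of -0.91 (95% interval -1.87 to 0.06) over all 10 libraries and -1.09 without Cort+/+ OGD-R replicate 1. Casp12, a caspase of the endoplasmic reticulum, had -0.39 and -0.55. Without that library these were the 2 genes of the list with an unadjusted p under 0.05. The stromelysin Mmp3 had -0.49 over all 10 libraries (95% interval -2.31 to 1.33) and -1.06 without that library, in which it lay at 4.84 RPKM against 12.8 and 19.97 RPKM in the other Cort+/+ OGD-R libraries.

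Of 16 listed genes named for a genotype difference under NX/NG, 14 were tested, and 2 had an unadjusted p under 0.05, Col6a3 and Col1a2. Their signs were mixed, 8 positive and 6 negative, with a median of 0.20 over all 10 libraries and 0.19 without Cort+/+ OGD-R replicate 1. F11r, a junctional adhesion molecule, had -0.20 (95% interval -0.63 to 0.23) and the endothelial transcription factor Sox17 had -0.39 (95% interval -1.18 to 0.39).

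Of 7 listed genes named for a genotype difference under OGD-R, 5 were tested and 0 had an unadjusted p under 0.05. The median was 1.75 over all 10 libraries, 1.497 without Cort+/+ OGD-R replicate 1 and 0.09 without Cort-/- OGD-R replicate 1, when 3 of the 5 passed the filter. Cdh1, the epithelial cadherin, lay at 2.96 RPKM in Cort+/+ NX/NG replicate 2, 2.72 RPKM in Cort-/- OGD-R replicate 1 and at 0.283 RPKM or less elsewhere. Its interaction was 3.54 with a 95% interval of -2.18 to 9.27. Cldn6, a claudin of epithelia, had 1.75 (95% interval -0.72 to 4.22) and Cldn4, another, had 1.20 (95% interval -2.65 to 5.05). The same 2 libraries led a list of epithelial markers, in which all 7 tested genes were positive with a median of 2.08 and 0 had an unadjusted p under 0.05. The keratin Krt8 was 19.2 and 11.6 RPKM in them and at most 2.65 RPKM in the other 8. Cdh1, Cldn4, Cldn6 and Epcam belong both to the epithelial markers and to the genes named for OGD-R, so these lists are not separate results. Mylk, the myosin light chain kinase, had 0.04 (95% interval -0.28 to 0.36).

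**Figure D4:**
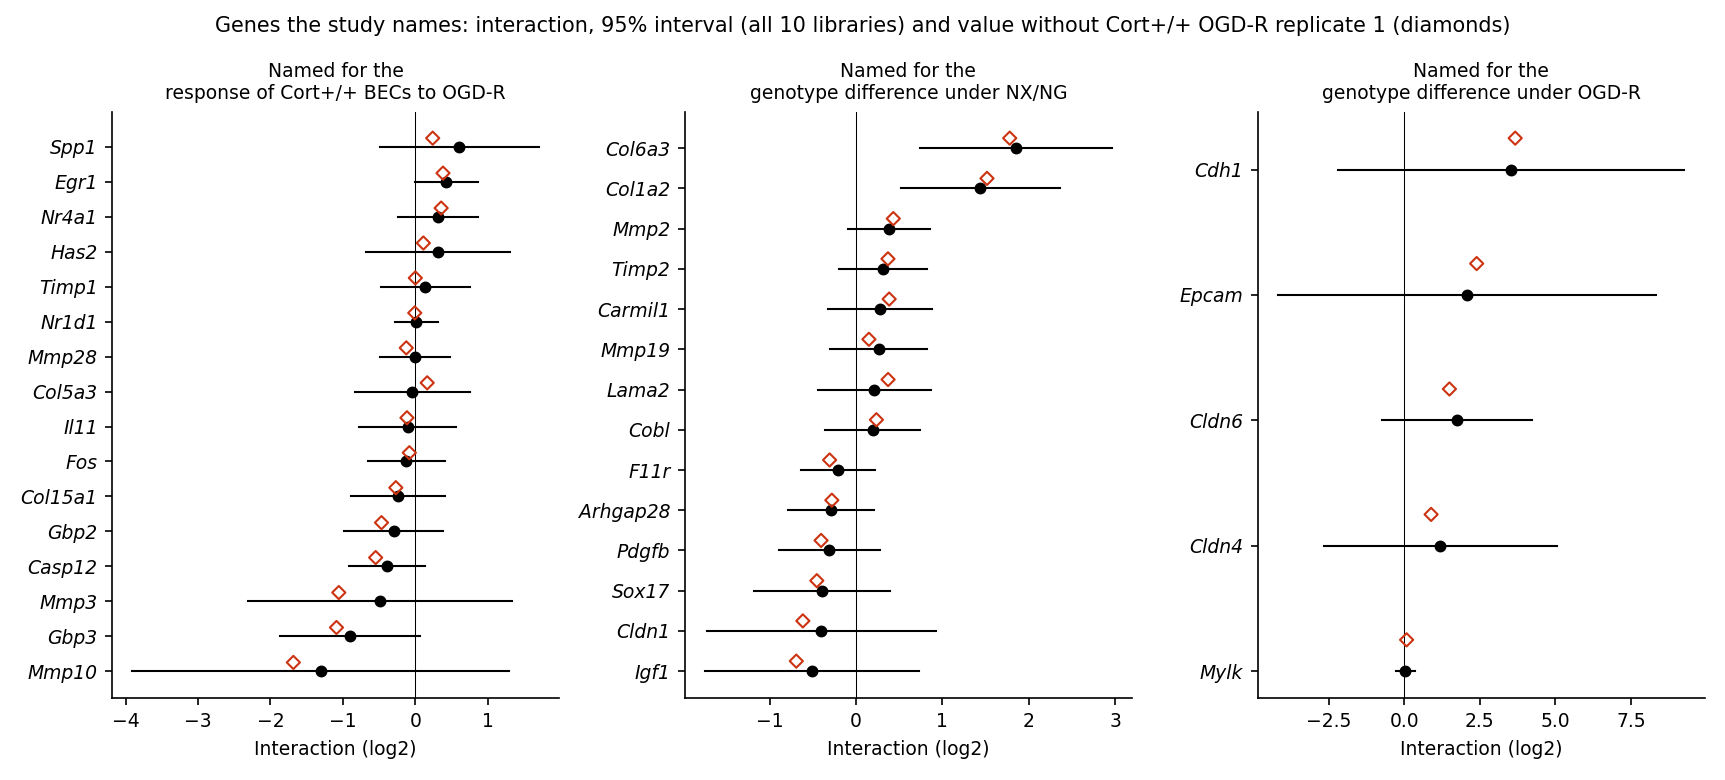
Interaction (x axis, log2) of listed genes that the study names (y axis), in 3 panels by the comparison they were named for; points and lines are the value and 95% interval over all 10 libraries and diamonds the value without Cort+/+ OGD-R replicate 1. The intervals of Col6a3 and Col1a2 lie above 0, those of the other genes span 0, and that of Cdh1 runs from -2.18 to 9.27.

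Interferon-stimulated genes shared a sign over all 10 libraries, but not under every setting. All 37 tested of 51 listed had a negative interaction, with a median of -0.42, and 0 had an unadjusted p under 0.05. Without Cort+/+ OGD-R replicate 1 the median was -0.55, with 5 negative genes at an unadjusted p under 0.05 against 1.81% of all genes. Isg15, a ubiquitin-like protein and a defining member of the group, was named after its values were seen. It lay at 3.21, 5.21 and 5.69 RPKM and then 3.53, 7.62 and 13.9 RPKM in Cort+/+ BECs, and at 3.67 and 15.7 RPKM and then 5.44 and 6.20 RPKM in Cort-/- BECs. A single library of Cort-/- NX/NG, replicate 2, was the highest of the 10, and its partner was among the lowest. The interaction of Isg15 was -1.04 with a 95% interval of -3.18 to 1.11. The list median was -0.11 without Cort-/- NX/NG replicate 2, when 8 of 36 tested genes were positive. It was -0.77 without Cort-/- NX/NG replicate 1. With the replicate number as a block within genotype 13 of 37 were positive.

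Lists of barrier and endothelial genes had medians near 0, with single genes farther out. Of 27 junction genes tested, 0 had an unadjusted p under 0.05, with a median of -0.01, and for 22 the 95% interval lay within 1 log2 unit of 0. The values ran from -0.40 to 1.05, and the lowest p was that of Jam2, a junctional adhesion molecule. For Jam2 both Cort-/- NX/NG libraries lay below the 8 others, as they did for 4.84% of all genes tested. Cldn5 had an interaction of -0.25 (95% interval -0.66 to 0.16), the tight junction protein Ocln 0.08 (95% interval -0.34 to 0.50) and the scaffold Tjp1 -0.18 (95% interval -1.02 to 0.66). Of 39 genes of endothelial identity, 0 had an unadjusted p under 0.05, with a median of -0.07. Their signs were 10 positive and 29 negative, and the values ran from -0.39 to 0.40. Of 26 barrier transporters and transcytosis genes the median was 0.06, with values from -0.50 to 0.72 and 0 at an unadjusted p under 0.05. Without Cort+/+ OGD-R replicate 1 there was 1 positive gene at that level, against 1.83% of all genes.

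Pathways that deprivation acts on had medians close to that of all genes. The median was -0.03 in 31 targets of the hypoxia-inducible factors and 0.01 in 25 glycolysis genes, with 0 at an unadjusted p under 0.05 in either. Without Cort+/+ OGD-R replicate 1 each of these lists had 1 positive gene at that level, and cell cycle genes had 2. The share of all genes was then 1.83%. Vegfa, the main angiogenic factor and a hypoxia target, had 0.25 (95% interval -0.25 to 0.74), and the glucose transporter Slc2a1 had -0.13 (95% interval -0.62 to 0.36). Of 33 genes of the integrated stress and unfolded protein response, 1 had an unadjusted p under 0.05, Sdf2l1. The median was 0.03 in 33 genes of cholesterol and fatty acid synthesis, where all 33 intervals lay within 1 log2 unit of 0, and -0.01 in 48 cell cycle genes, where 47 did. In 64 cytosolic ribosomal protein genes the median was -0.03, the values ran from -0.11 to 0.09, and all 64 intervals lay within 1 log2 unit of 0.

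The 13 genes of the mitochondrial genome tested had a median of -0.21 over all 10 libraries, with 1 positive gene at an unadjusted p under 0.05, mt-Co3 (0.96, SE 0.40). Without Cort+/+ OGD-R replicate 1 the median was -0.48, mt-Co3 (0.83) was no longer at that level, and 1 negative gene was, mt-Nd6 (-1.17, and -0.72 over all 10 libraries). mt-Co1, a core subunit of cytochrome c oxidase, lay at 2796 and 3205 RPKM in the 2 libraries low in ribosomal RNA and at 4156 to 5297 RPKM in the other 8. These libraries had the lowest level in both genotypes, and the part of the low ribosomal RNA in these values was not tested. Contractile genes had a median of -0.02 over all 10 libraries and 0.03 without Cort+/+ OGD-R replicate 1. Actg2, a smooth muscle actin, had an interaction of 1.34 (SE 0.58) and was the only one at an unadjusted p under 0.05. Without Cort+/+ OGD-R replicate 1, 0 contractile genes were at that level. Actg2 lay at 59.2, 43.8 and 36.7 RPKM and then 14.9, 16.3 and 15.4 RPKM in Cort+/+ BECs, and at 14.8 and 11.4 RPKM and then 6.35 and 19.9 RPKM in Cort-/- BECs. For Actg2 it was the Cort+/+ NX/NG group that stood above the 7 other libraries.

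Further lists had 0 genes at an unadjusted p under 0.05, namely heat shock and chaperones (21 genes tested, median -0.05), NRF2 and antioxidant genes (33, 0.01), chemokines, cytokines and NF-kB (29, -0.05), leukocyte adhesion (19, -0.02), the TGF-beta and BMP pathway (43, 0.04), vascular tone (16, 0.06) and the circadian clock (17, 0.01). A single gene stood at that level among 35 immediate early and MAPK feedback genes, the phosphatase Dusp2 (0.92, SE 0.37), and among 18 Notch pathway genes, the transcription factor Rbpj (0.31, SE 0.14). The same held for Dkk3 in 27 Wnt pathway genes, Bbc3 in 33 p53 and cell death genes and Arrdc1 in 9 glucose-responsive genes. Without Cort+/+ OGD-R replicate 1, the Notch pathway had 3 positive genes at that level, against 1.83% of all genes. Heat shock and chaperones then had 1 negative gene, against 1.81% of all genes. The p53 and cell death genes had 1 positive and 2 negative, and the other lists of this paragraph kept their counts.

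**Figure D5:**
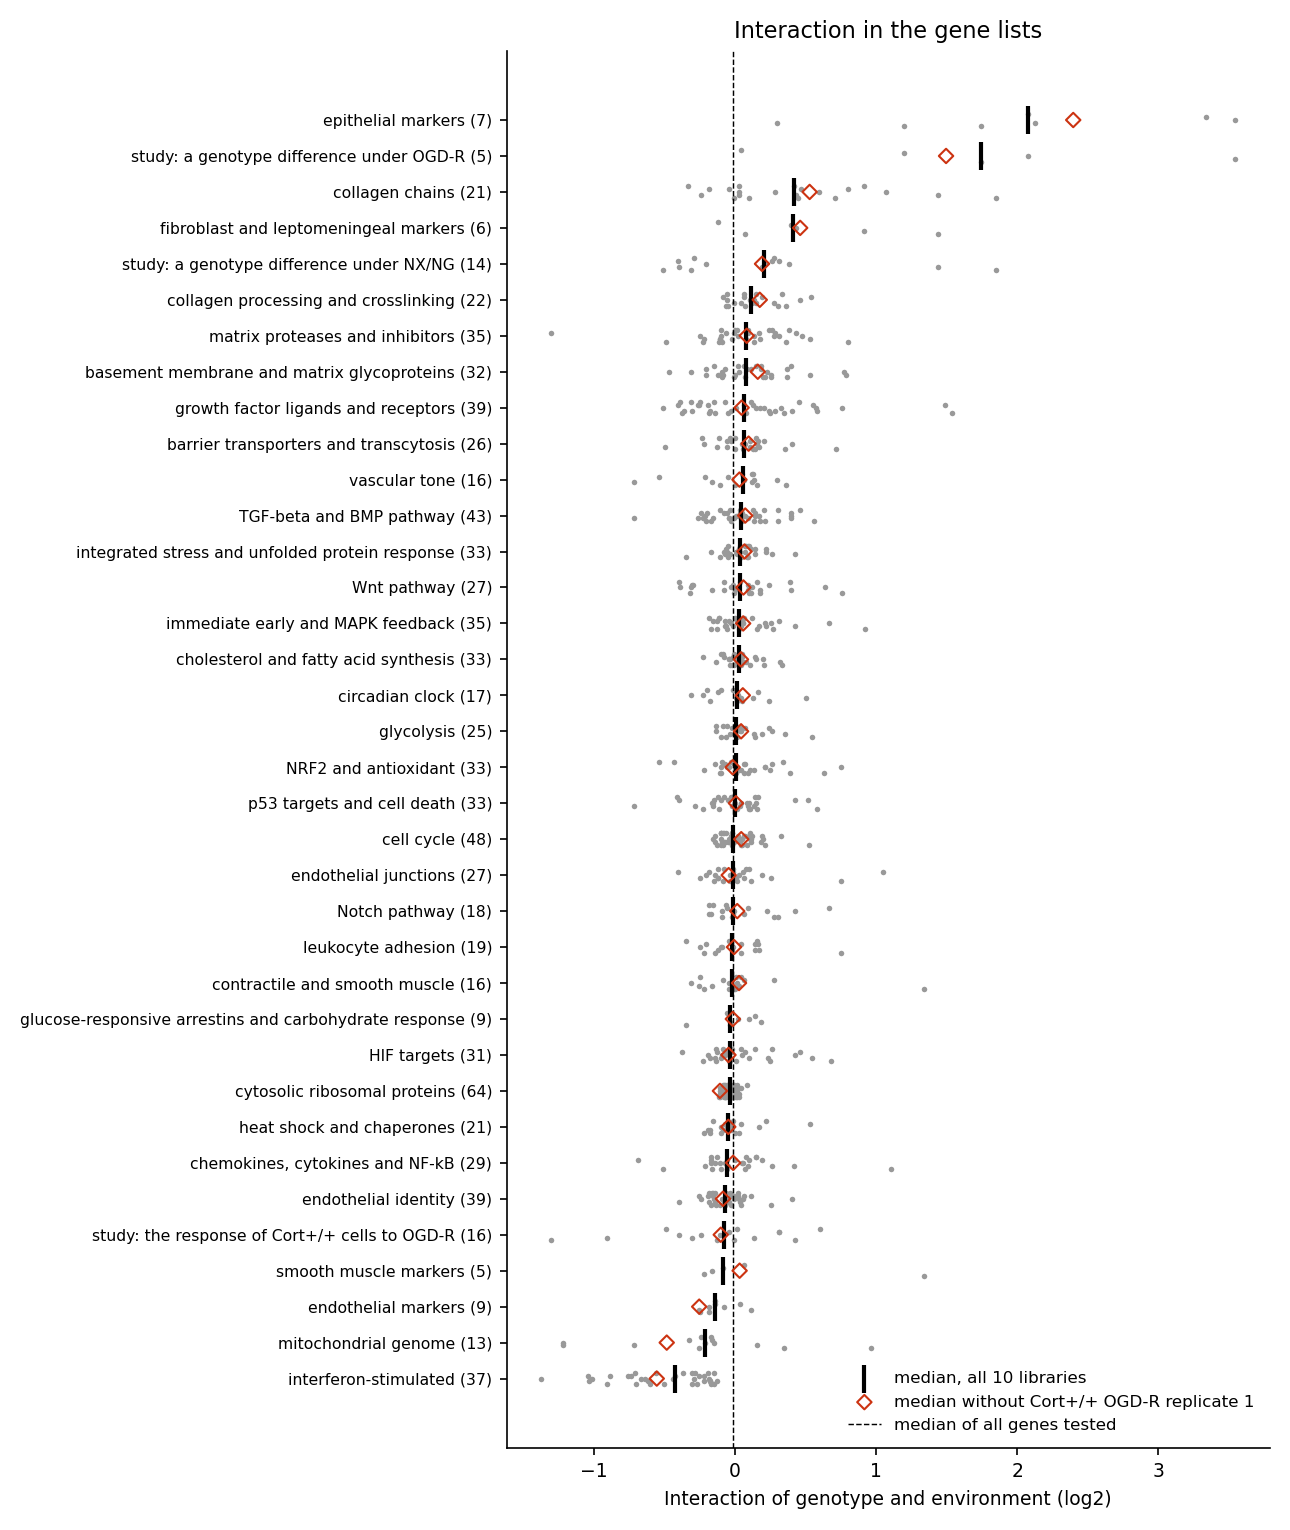
Interaction (x axis, log2) of the tested genes of each list with at least 5 tested members (y axis, number tested in brackets); grey points are genes, black ticks the list medians over all 10 libraries, red diamonds the medians without Cort+/+ OGD-R replicate 1, and the dashed line the median of all genes tested, -0.02. Epithelial markers (2.08) and the genes named for OGD-R (1.75), which share Cdh1, Cldn4, Cldn6 and Epcam, lie farthest to the right. Collagen chains lie at 0.42, and interferon-stimulated genes farthest to the left at -0.42.

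Repeatability across the settings was counted for all 266 genes. For 64 the sign and an unadjusted p under 0.05 held with each of the 10 libraries left out in turn, and for 49 they also held by limma-voom and when low ribosomal RNA was added to the fit as a covariate. Of these 49, 29 were positive and 20 negative, and 18 were shorter than 200 bases. Cox6b2, Cspg4, Atp1b1, Cemip, Thbs3, Bbc3, Col6a3, Col1a2, Adamts1 and Srrd were among the 49, whereas Col6a2, Igfbp5, Pdgfrb, Fgf2 and Dkk3 each lost an unadjusted p under 0.05 without 1 or more libraries.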

How the data were processed

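RNA-seq of primary BECs was analysed in 10 libraries of 4 groups (3 Cort+/+ and 2 Cort-/- in each environment). The authors ran their reanalyzerGSE pipeline, set to keep genes of low expression, and deposited RPKM per gene in a separate table for either environment, normalized apart; the aligner, genome build and annotation are not given in the sources used here. The tables also hold the authors' fold changes, p-values and FDR between genotypes, which were not used, and 10 further columns of expression categories were not used. The labels and the methods name different library kits and RNA inputs.

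The product of RPKM and gene length gave whole reads (tolerance 0.05) for 99.9958% to 100% of values per library. These reads were rescaled jointly by trimmed means of M values (trims 0.3 and 0.05), and RPKM computed anew. The interaction was fitted over the 4 groups by limma 3.58.1 (R 4.3.3; trend on mean expression, 6 residual degrees of freedom) to log2(RPKM + 0.1) of genes reaching 1 RPKM in 2 or more libraries, and genes were called at an FDR (Benjamini-Hochberg) up to 0.05. Fold changes are on this scale, which understates those of low genes. P-values are the moderated, two-sided ones of limma. The script was tested on simulated data. Intervals are at 95%. Replicates were independent pools of mice, as the methods describe them.

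The naming rule took called genes and the 12 of lowest p in each direction. It took the 3 of lowest p in each of 33 gene lists and the listed genes that the study names. It also took up to 5 of largest interaction in each direction with a mean of at least 5 RPKM, under a limit on p. The 10 marker lists were not part of the rule, and genes named from those lists alone fall outside it. Genes without a symbol of known meaning were left out. The contrast, lists and naming rule were chosen with earlier results of these data known. Positions were looked up by symbol in GENCODE vM21 on GRCm38, found for 136 of 140 named genes, and promoters are from RefSeq. Alternatives were other scalings, filters, pseudocounts, blocks and left-out libraries, a term for libraries low in ribosomal RNA and limma-voom; library weights, a minimum of 10 reads, and limma-voom and no filter without Cort+/+ OGD-R replicate 1 were added after seeing the data.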

Additional observations from a re-analysis of the deposited data

How the results depend on the processing

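Over 25 alternatives, 4 of them chosen after seeing the data, limma called 0 genes except 3 with no filter on low values (Gm16006, Gm16044 and Gm24045, with at most 1, 2 and 3 reads in a library) and 2 without Cort-/- OGD-R replicate 1, so with libraries left out in turn the count ranged from 0 to 2. Genes at an unadjusted p under 0.05 ranged from 226 to 735 with libraries left out, against 266. They numbered 559 without both libraries low in ribosomal RNA, 780 with no filter and 1066 with no filter and without Cort+/+ OGD-R replicate 1, 526 by limma-voom without that library, and 89 of the 7809 whose mean reached 5 RPKM, where fewer genes were tested. The share positive (56.0%) ranged from 31.3% to 62.5% with libraries left out, was 31.3% without both libraries low in ribosomal RNA, and was 36.1% with the replicate block within genotype. The cause of these moves was not tested, beyond the fewer or more genes that the filters admit.

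Same-numbered libraries were not clearly alike: their deviations from the group means correlated at -0.03, -0.06, 0.11 and -0.13, and 1 of the 3 Cort+/+ pairs was closest to its own number. With so few libraries per group, and some low in ribosomal RNA, these correlations cannot show whether same-numbered cultures shared a pool. The replicate block gave 257 genes at that level and called 0, and the block within genotype gave 443. Of 3413 alternative values of named genes, 71 (in 28 genes) had the other sign, none with an unadjusted p under 0.05 in either fit, and of 998 list medians 94 moved by more than the spread. Depth limits genes of few reads, and 2 libraries per Cort-/- group limit all intervals.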

Other observations

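Further coding genes were among the 49 whose interaction kept its sign and an unadjusted p under 0.05 in every fit counted, and were named after their values were seen. Cdh11, a cadherin of mesenchymal cells, lay at 32.3, 32.8 and 28.7 RPKM and then 32.2, 33.05 and 34.2 RPKM in Cort+/+ BECs, and at 16.0 and 12.8 RPKM and then 21.4 and 30.7 RPKM in Cort-/- BECs, with an interaction of 0.75 (SE 0.22). The surface protein Cd109 lay at 36.4, 37.0 and 35.3 RPKM and then 37.8, 41.6 and 39.5 RPKM in Cort+/+ BECs, and at 19.9 and 21.5 RPKM and then 29.5 and 39.1 RPKM in Cort-/- BECs, with an interaction of 0.58 (SE 0.16). In both genes the Cort-/- NX/NG libraries were the lowest of the 10.

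The guidance ligand Slit3 had an interaction of 0.98 (SE 0.29), Nxph3 of 1.38 (SE 0.42), Setbp1 of 1.01 (SE 0.27) and the water channel Aqp1 of 1.56 (SE 0.51). Aqp1 lay at 2.06 and 2.41 RPKM in the Cort-/- NX/NG libraries and at 3.64 and 9.79 RPKM in the Cort-/- OGD-R libraries, a pair far apart. Negative values came from Mcrip2 (-0.76, SE 0.23) and from Hps4, a gene of lysosome-related organelles (-0.40, SE 0.13).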
